A study of Homo sapiens with 9 samples.

Results

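HOX cluster genes encode homeodomain transcription factors, and here they were chosen as genes whose array name was HOX, a cluster letter from A to D and a number. The 38 described are 10 in HOXA, 10 in HOXB, 9 in HOXC and 9 in HOXD, read by 47 of the 50598 probes. Gene expression was measured in HEK293 cells, a line derived from human embryonic kidney, that stably expressed HA-tagged MEK1, the kinase that activates ERK. The 3 lines expressed MEK1 WT, MEK1 F53S, a substitution found in RASopathies, or MEK1 K57N, a substitution found in cancer, each beside the MEK1 of the cells themselves. Each line was measured on 3 Agilent arrays labelled with 1 dye. No more than 1 derivation of each line is described, so other differences between the lines cannot be told apart from the substitution. The tests below measure only the spread between these 3 arrays of a line. The labels list no treatment of the cells. The source field of 2 WT samples spells the line with another number than their title and cell line field, and the latter were used.

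HOX genes lie in 4 clusters on 4 chromosomes, each ordered from paralog group 1 at the 3′ end to paralog group 13 at the 5′ end. The genes at the 3′ end are known to act early and towards the head of the embryo, and those at the 5′ end late and towards the tail. Retinoic acid and CDX factors switch clusters on, Polycomb complexes keep silent genes silent, trithorax complexes keep active genes active, and PBX and MEIS proteins are cofactors that bind DNA with HOX proteins. In the kidney, the genes of paralog group 11 are known for their part in the induction of the metanephros.

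A signal below is log2 of an array's background-corrected intensity relative to the 75th percentile of that array, so 1 unit is a 2-fold change. A probe was called above background where the scanner software flagged it as well above background, and signals were compared between lines for 1 probe, never between probes. Replicate 1 of every line lay on slide 1 and replicates 2 and 3 on slide 2. The 75th percentile of the unscaled intensity was 245 to 376 on slide 1 and 695 to 821 on slide 2, and 23714 to 26113 probes were above background on slide 1 against 27115 to 29324 on slide 2. The probe of MAP2K1, the gene of MEK1 (chr15:66783224-66783283, hg19), was not matched to the introduced HA-MEK1 and may read only the cells' own transcript, so it does not check the labels. It gave 2.36, 2.34 and 2.42 in WT, 2.50, 2.39 and 2.46 in F53S and 2.92, 2.81 and 2.82 in K57N (K57N minus WT 0.48, limma adjusted p = 0.135, or 0.00758 once slide was a term). Of 7 HEK293 markers, 6 were above background on all arrays, and NEFM was so on 6. Of 6 markers of blood, endothelium, fibroblasts and liver, COL1A1, CDH5 and 1 PTPRC probe were above background on all arrays and ALB was on none.

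Most HOX genes gave signal in these cells. A probe of 26 of the 38 genes was above background on all 9 arrays, a share of 68.4%, against 44.1% of the 38780 named genes of the array. Of the others, 9 were above background on some arrays and 3 on none. HOXA had 8 genes above background on all arrays, 1 on some and 1 on none. HOXB had 7, 3 and 0, HOXC had 5, 3 and 1, and HOXD had 6, 2 and 1. By position, 3 of 7 genes of paralog groups 1 to 3 were above background on all arrays, against 12 of 15 of groups 4 to 8 and 11 of 16 of groups 9 to 13.

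At the 3′ end, HOXB1, a gene of the developing hindbrain, was above background only in K57N replicate 1. There its signal was -3.75, while the other 8 arrays lay between -7.60 and -5.81. HOXD1 was above background on 7 arrays. HOXA2, which patterns the second branchial arch, was above background on 8 arrays and HOXB3 on 7, while HOXB2, HOXA3 and HOXD3 were on all 9. In the middle of the clusters, HOXA4, HOXB4 and HOXC4 were above background on all arrays and HOXD4 on 4. HOXA5 and HOXB5 were on all arrays and HOXC5 on 8. HOXA6, HOXB6, HOXC6, HOXA7, HOXB7, HOXC8 and HOXD8 were on all arrays, and HOXB8 was on 6.

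At the 5′ end the pattern was not graded. All 4 genes of paralog group 9 (HOXA9, HOXB9, HOXC9 and HOXD9) and all 4 of group 13 (HOXA13, HOXB13, HOXC13 and HOXD13) were above background on every array. Between them, HOXA10 and HOXD10 were on all arrays and HOXC10 on 8. In paralog group 11, HOXD11 was above background on all arrays, HOXA11 on none and HOXC11 on 3. HOXC12 and HOXD12 were on none. HOXC11 signals were -5.82, -3.57 and -5.62 in WT, -5.79, -1.74 and -4.81 in F53S and -6.54, -7.03 and -5.28 in K57N. It was above background on 1 WT array, 2 F53S arrays and no K57N array, and F53S replicate 2 stood above the rest.

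Counted within a line, 28 genes were above background on all WT arrays, 27 on all F53S arrays and 31 on all K57N arrays. Per array, 27 to 32 HOX genes were above background on slide 1 and 32 to 34 on slide 2. Among the slide 1 arrays, K57N had the highest 75th percentile (376, against 285 in WT and 245 in F53S) and the most HOX genes above background (32, against 28 and 27). Without replicate 1, which leaves slide 2, the counts were 32 in WT, 34 in F53S and 32 in K57N.

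Several genes have more than 1 probe. HOXA9 has 2, both above background on all arrays. Its K57N minus WT difference was 0.18 at the brighter probe, used below, and -0.16 at the other. HOXA10 has 2, and its probe at chr7:27211235-27211294 (hg19) was below background on all arrays while the one spanning chr7:27211789-27213023 was above on all. HOXB7 has 4. Only the probe at chr17:46684989-46685048 was so named on slide 1, and the other 3, at chr17:46711045-46716530, took the name in the annotation of the slide 2 files. The brightest of these represents HOXB7 below. Those 3 lie beyond the HOXB8 and HOXB9 probes on the chromosome, and whether they read HOXB7 was not tested. The brightest differed by -0.17 between K57N and WT, and the probe named HOXB7 in both annotations by -0.12.

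RefSeq promoters, taken as the 250 bases before to 50 after the gene start on GRCh38.p14, were given for 20 HOX genes, and HOXC4 and HOXC5 share 1 of them. The HOXA3 window lies between those of HOXA6 and HOXA7, while its probe lies between those of HOXA2 and HOXA4. A window can thus lie far from the probe of its gene. Whether it serves the transcript that the probe reads was not tested. The entries not given are HOXA5, HOXB2, HOXB3, HOXB4, HOXB5, HOXB6, HOXB7, HOXB8, HOXB9, HOXB13, HOXC6, HOXC8, HOXC9, HOXC10, HOXC11, HOXC12, HOXC13 and HOXD9. The 250 bases before the start are shown for 3 genes of different behaviour on the arrays: HOXD11, a group 11 gene above background on all arrays and lower in K57N with slide as a term; HOXA11, a group 11 gene above background on none; and HOXC4, the gene whose 3 K57N arrays were all above WT. They read 5′ to 3′ on the gene's strand, with each CpG dinucleotide, the site of DNA methylation in vertebrates, in capitals.
HOXD11 (chr2:176107030-176107279, plus strand): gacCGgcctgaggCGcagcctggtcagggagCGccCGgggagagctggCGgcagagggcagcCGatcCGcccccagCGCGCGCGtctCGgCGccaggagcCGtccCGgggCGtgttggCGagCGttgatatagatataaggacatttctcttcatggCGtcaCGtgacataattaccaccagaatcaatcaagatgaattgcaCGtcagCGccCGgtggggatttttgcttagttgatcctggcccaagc
HOXA11 (chr7:27185233-27185482, minus strand): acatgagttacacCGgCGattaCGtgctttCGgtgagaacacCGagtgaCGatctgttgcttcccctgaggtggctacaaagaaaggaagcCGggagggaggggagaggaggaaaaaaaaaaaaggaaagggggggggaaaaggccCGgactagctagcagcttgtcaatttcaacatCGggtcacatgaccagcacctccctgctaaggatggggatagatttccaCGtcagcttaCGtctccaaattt
HOXC4 (chr12:54016638-54016887, plus strand): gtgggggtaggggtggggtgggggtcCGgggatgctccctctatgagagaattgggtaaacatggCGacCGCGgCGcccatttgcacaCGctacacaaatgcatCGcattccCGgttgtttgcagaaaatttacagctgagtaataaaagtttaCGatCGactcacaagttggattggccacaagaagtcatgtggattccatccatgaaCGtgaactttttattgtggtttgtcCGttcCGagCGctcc

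The printed stretch of HOXD11 holds 23 CpG dinucleotides, that of HOXA11 11 and that of HOXC4 14. Over the 300-base windows, the 13 promoters of genes above background on all arrays held a median of 25 CpG dinucleotides (range 15 to 44). The 5 promoters of genes above background on some arrays held a median of 11 (range 4 to 36), and those of HOXA11 and HOXD12, above background on none, held 13 and 19. The window shared by HOXC4 and HOXC5 was counted for each gene, so it is among the 13 and among the 5. The median over all 35116 promoters was 14. Searched on both strands and independently of each other, the ETS motif CCGGAAG and the AP-1 motif TGANTCA, sites of factor families downstream of ERK, were in 0 of the 20 HOX windows, against 10.3% and 7.71% of all promoters. The letters TATAAA were in 4 of the 20 (HOXA3, HOXA9, HOXA10 and HOXD13), against 11.5% of all promoters. These matches are letters in a window, and methylation and binding were not measured.

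The first comparison asked which HOX genes differed between K57N and WT cells. Most HOX genes lay lower in K57N, and by small amounts. A gene was tested where its probe was above background on every array of at least 1 line. Of the 31 genes so tested, 23 had a K57N minus WT difference below 0 (74.2%), against 57.1% of the 19280 genes tested. The median difference was -0.21 over the HOX genes and -0.06 over all genes. By cluster the medians were -0.21 over 9 HOXA genes, -0.18 over 8 HOXB genes, -0.03 over 7 HOXC genes and -0.43 over 7 HOXD genes. By position they were -0.11 over 6 genes of groups 1 to 3, -0.17 over 13 of groups 4 to 8 and -0.39 over 12 of groups 9 to 13. The differences between these medians were not tested. In RNA from a whole culture, fewer cells expressing a gene and less RNA per cell cannot be told apart.

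No HOX gene passed the limma test at an adjusted p of 0.05 with a change of over 2-fold, against 2.26% of all genes. At an unadjusted p of 0.05, 6 of the 31 did (19.4%), against 13.2% of all genes, and the methods' t-test called no HOX gene after Benjamini-Hochberg adjustment with over 2-fold change, against 0.56% of all genes. All 3 K57N arrays lay below all 3 WT arrays for 10 HOX genes (32.3%), against 12.6% of all genes. They lay above for 1, HOXC4 (3.23%), against 10.2%.

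**Figure D1:**
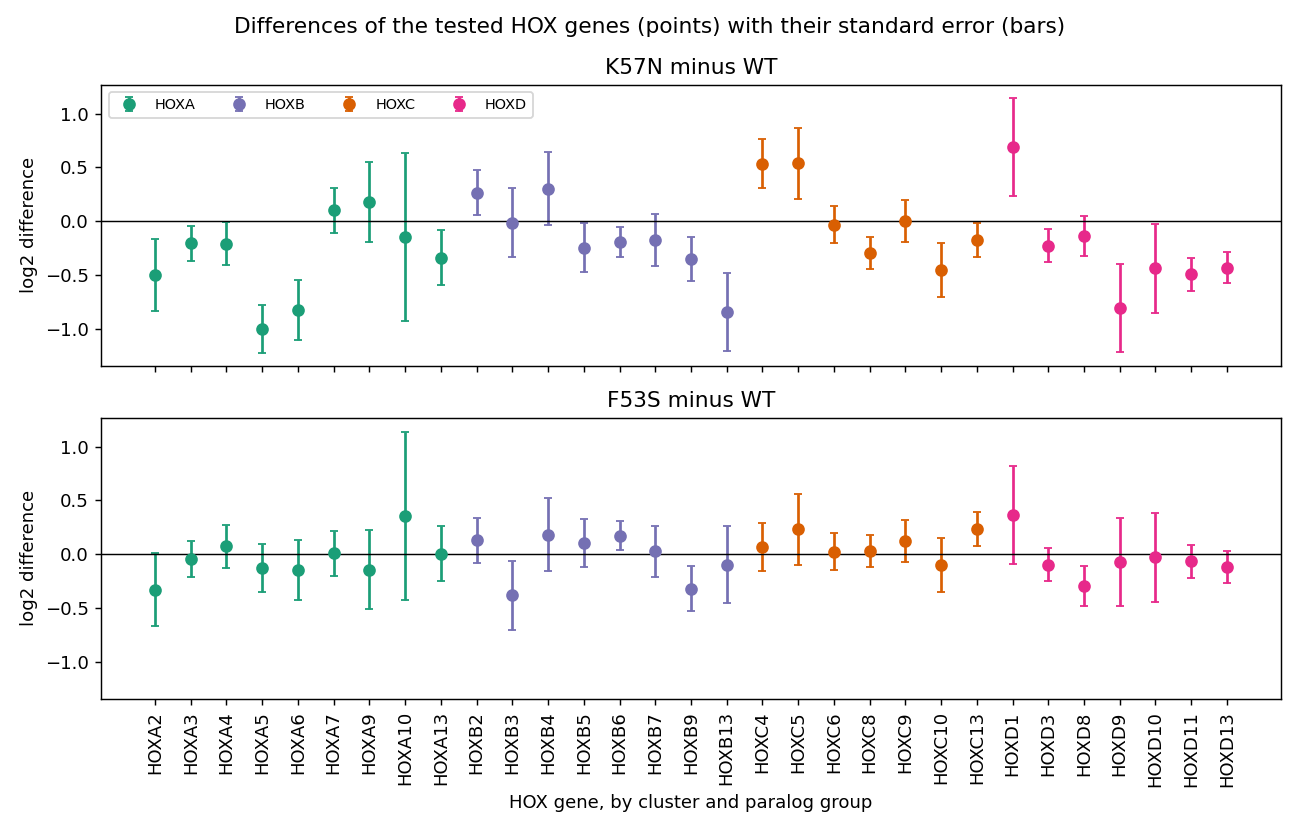
Log2 difference in signal (points) with its standard error from the limma fit without a slide term (bars, 3 arrays per line) for the 31 tested HOX genes, ordered by cluster and paralog group, for K57N minus WT (top) and F53S minus WT (bottom). K57N minus WT ranges from -1.002 at HOXA5 to 0.69 at HOXD1, and F53S minus WT from -0.38 at HOXB3 to 0.36 at HOXD1.

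Many of the tested signals differed between slides, and with slide as a term the median standard error of the HOX differences fell from 0.23 to 0.14. In that fit 1 of 31 HOX genes, HOXA5, passed an adjusted p of 0.05 with a change of over 2-fold (3.23%), against 4.54% of all genes. At an adjusted p of 0.05 and any size of change, 9 HOX genes were lower in K57N (29%), against 10.8% of all genes, and 0 were higher, against 8.56%. The 9 were HOXA2, HOXA5, HOXA6 and HOXA13 in HOXA, HOXC8 in HOXC, and HOXD9, HOXD10, HOXD11 and HOXD13 in HOXD. None was in HOXB. By position, 1 lay in groups 1 to 3, 3 in groups 4 to 8 and 5 in groups 9 to 13. With the replicate number as a block instead, 6 HOX genes were lower (HOXA5, HOXA6, HOXD9, HOXD10, HOXD11 and HOXD13, 19.4%), against 8.11% of all genes. In that fit 0 HOX genes were higher, and the share of all genes that were higher was not counted. The replicate block also left 1 HOX gene past the test with over 2-fold change, HOXA5, against 4.39% of all genes.

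HOXA5, a regulator of lung and thoracic skeleton development, had the largest fall. Its probe (chr7:27181547-27181606, hg19) gave 0.37, 0.32 and 0.30 in WT, 0.01, 0.36 and 0.22 in F53S and -1.15, -0.37 and -0.50 in K57N. All K57N arrays lay below all arrays of the other lines, and K57N replicate 1 was the lowest. The mean was 0.33 ± 0.04 in WT and -0.67 ± 0.42 in K57N (SD, n = 3), a difference of -1.002 ± 0.22 (SE) with limma adjusted p = 0.0609. With slide as a term the adjusted p was 0.00527, and with the replicate number as a block it was 0.0117. The difference was -1.51 on slide 1 and -0.75 on slide 2.

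HOXA6, the 5′ neighbour of HOXA5 on the chromosome, moved with it. Its brighter probe (chr7:27185116-27185175) gave 0.30, 0.59 and 0.60 in WT, 0.18, 0.52 and 0.35 in F53S and -0.99, 0.01 and -0.01 in K57N. K57N did not overlap with either other line. The difference from WT was -0.82 ± 0.28 (adjusted p = 0.214, and 0.0127 with slide), and the second HOXA6 probe gave -0.64 ± 0.27. Without K57N replicate 1, the lowest array, the difference of the brighter probe was -0.49. The genes on both sides of this pair differed less, with -0.21 at HOXA4 and 0.10 at HOXA7, and neither had an adjusted p under 0.05 in either fit.

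Of the 5′ HOXD genes, known for their role in limbs and genitalia, the 4 tested (HOXD9, HOXD10, HOXD11 and HOXD13) were lower at an adjusted p of 0.05 with the slide term, and none was without it. HOXD9, named here after its values were seen, gave -1.57, -0.86 and -0.80 in WT, -1.93, -0.65 and -0.86 in F53S and -2.53, -1.55 and -1.57 in K57N. Across the slides K57N overlapped WT by a small margin, but on each slide every K57N array lay below every WT array, by -0.95 on slide 1 and -0.73 on slide 2. The difference was -0.81 ± 0.41 without a slide term (adjusted p = 0.490) and -0.81 ± 0.11 with it (adjusted p = 0.00338). HOXD10 gave 0.54, 1.53 and 1.47 in WT, 0.43, 1.49 and 1.54 in F53S and 0.12, 1.02 and 1.08 in K57N. K57N overlapped both lines across the slides, with a difference from WT of -0.44 (adjusted p = 0.827, and 0.0105 with slide). HOXD11 gave -1.25, -1.36 and -1.29 in WT, -1.48, -1.47 and -1.15 in F53S and -1.77, -1.73 and -1.87 in K57N, a difference of -0.49 (0.175 and 0.0229). HOXD13, a gene of digit development, gave 1.59, 1.53 and 1.47 in WT, 1.49, 1.39 and 1.35 in F53S and 1.01, 1.02 and 1.26 in K57N, a difference of -0.43 (0.214 and 0.0252). At HOXD11 and HOXD13 the K57N arrays lay below all arrays of both other lines. HOXD12, between the last of these, was below background on all arrays. Towards the 3′ end, HOXD8 differed by -0.14 and HOXD3 by -0.23, and neither had an adjusted p under 0.05 in either fit.

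The other 3 genes lower with the slide term were HOXA2, HOXA13 and HOXC8. HOXA2 gave -2.95, -2.30 and -2.70 in WT, -3.56, -2.71 and -2.68 in F53S and -3.73, -2.95 and -2.77 in K57N, a difference of -0.50 (adjusted p = 0.671, and 0.0484 with slide). HOXA13, a gene of digits and the genital tract, gave -0.85, -0.32 and -0.42 in WT, -0.90, -0.40 and -0.29 in F53S and -1.28, -0.69 and -0.65 in K57N, a difference of -0.34 (0.735 and 0.0299). HOXC8 gave -0.13, 0.17 and 0.02 in WT, -0.01, 0.06 and 0.11 in F53S and -0.38, -0.25 and -0.19 in K57N, a difference of -0.30 (0.481 and 0.0490). K57N overlapped both lines across the slides at HOXA2 and HOXA13 and lay below both at HOXC8.

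HOXB13, a gene of prostate and tail development, gave 2.72, 1.81 and 1.68 in WT, 2.56, 1.81 and 1.55 in F53S and 0.84, 1.37 and 1.46 in K57N. The K57N arrays were the lowest, and the gap was wide on slide 1 (-1.88) and narrow on slide 2 (-0.33). The difference of -0.84 ± 0.36 did not pass the test (adjusted p = 0.362, and 0.102 with slide), and it was -0.65 without K57N replicate 1 and -0.52 without WT replicate 1. HOXB genes nearer the 3′ end ranged from -0.35 at HOXB9 to 0.30 at HOXB4.

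The 3 largest rises were in genes at the 3′ ends of HOXC and HOXD. HOXC4 gave 2.42, 1.86 and 1.78 in WT, 2.42, 1.90 and 1.94 in F53S and 2.47, 2.51 and 2.68 in K57N. The slide 1 arrays of all lines were alike, and the slide 2 arrays of K57N were higher. The difference was 0.54 ± 0.23 (adjusted p = 0.356, and 0.0536 with slide), with 0.05 on slide 1 and 0.78 on slide 2. HOXC5, which shares its RefSeq start with HOXC4, gave -4.57, -3.74 and -3.54 in WT, -3.50, -3.70 and -3.97 in F53S and -3.04, -3.94 and -3.25 in K57N. HOXD1 gave -5.16, -4.08 and -4.49 in WT, -5.15, -3.30 and -4.20 in F53S and -4.12, -3.84 and -3.68 in K57N. In both genes the lines overlapped, and some of these signals were below background. Their differences were 0.54 ± 0.33 and 0.69 ± 0.46, with adjusted p of 0.610 and 0.652. Without WT replicate 1 they were 0.23 and 0.40, and HOXC5 was 0.35 without K57N replicate 1. Under normexp background correction they were 0.02 and 0.12, and on slide 2 alone HOXC5 was 0.04.

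**Figure D2:**
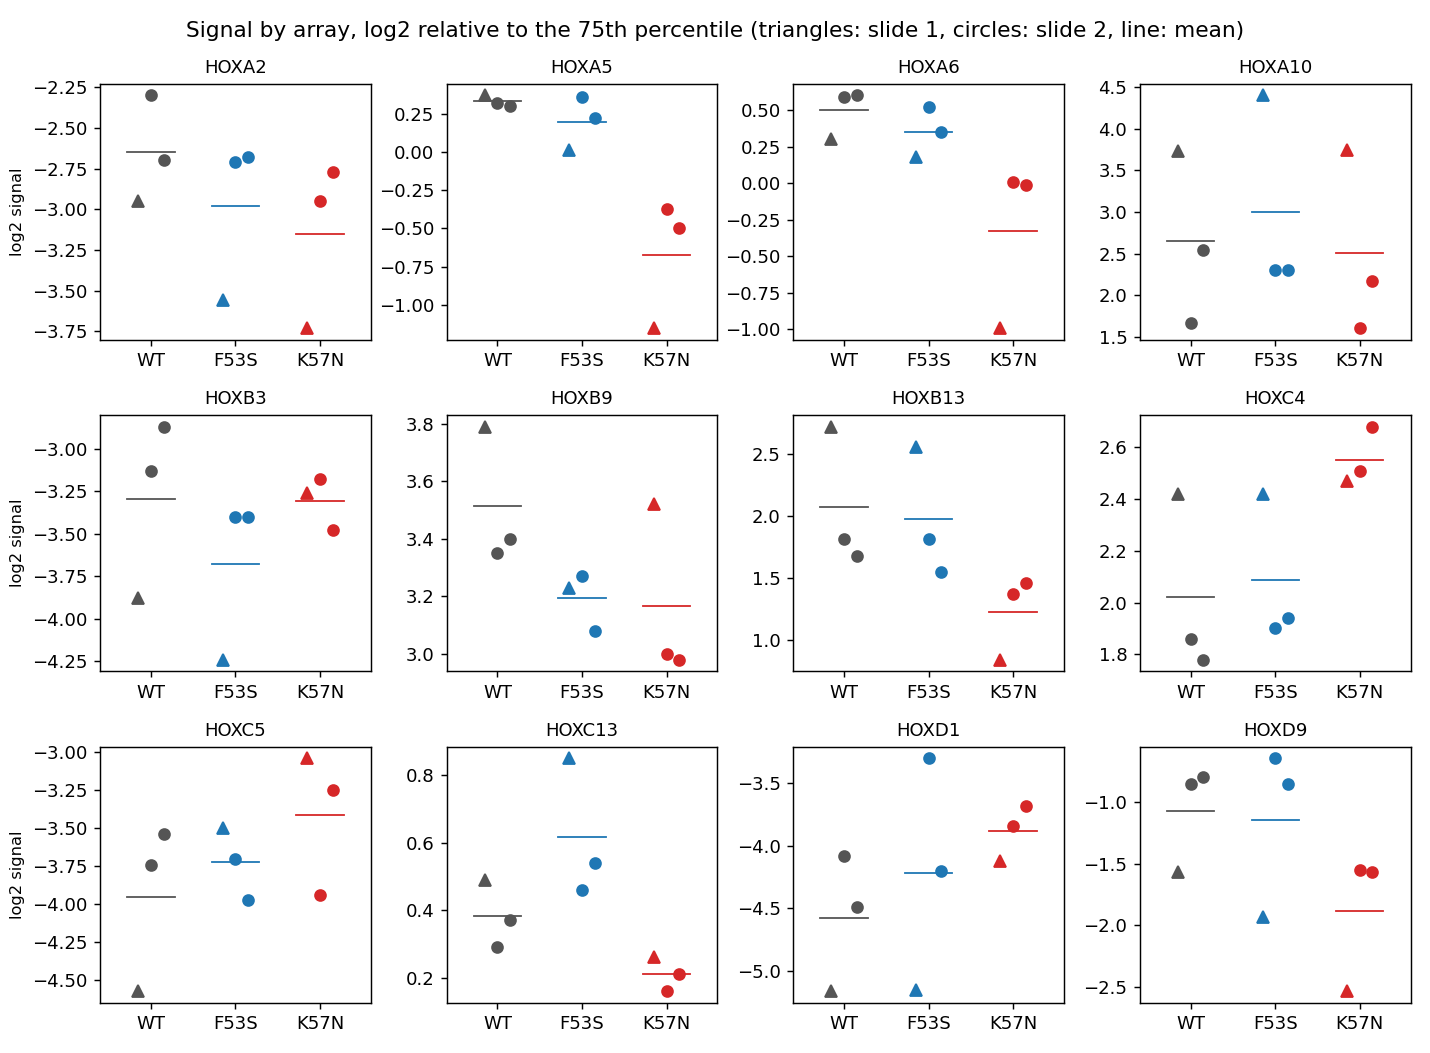
Signal of 12 HOX genes on each array, in log2 units relative to the array's 75th percentile, by line, with slide 1 as triangles, slide 2 as circles and the mean as a line. Each panel has its own vertical scale. The K57N points lie below both other lines at HOXA5, HOXA6, HOXB13 and HOXC13, and above both at HOXC4.

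Within slides, 20 of the 31 tested genes had a K57N minus WT difference below 0 on both slides, 4 above 0 on both, and 7 had opposite signs. The genes with opposite signs included HOXB3 (0.63 on slide 1 and -0.33 on slide 2), HOXA7 (-0.28 and 0.30) and HOXC9 (-0.55 and 0.28), which were named for this after their values were seen. Slide 1 holds 1 array per line, so its differences have no replicate check.

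**Figure D3:**
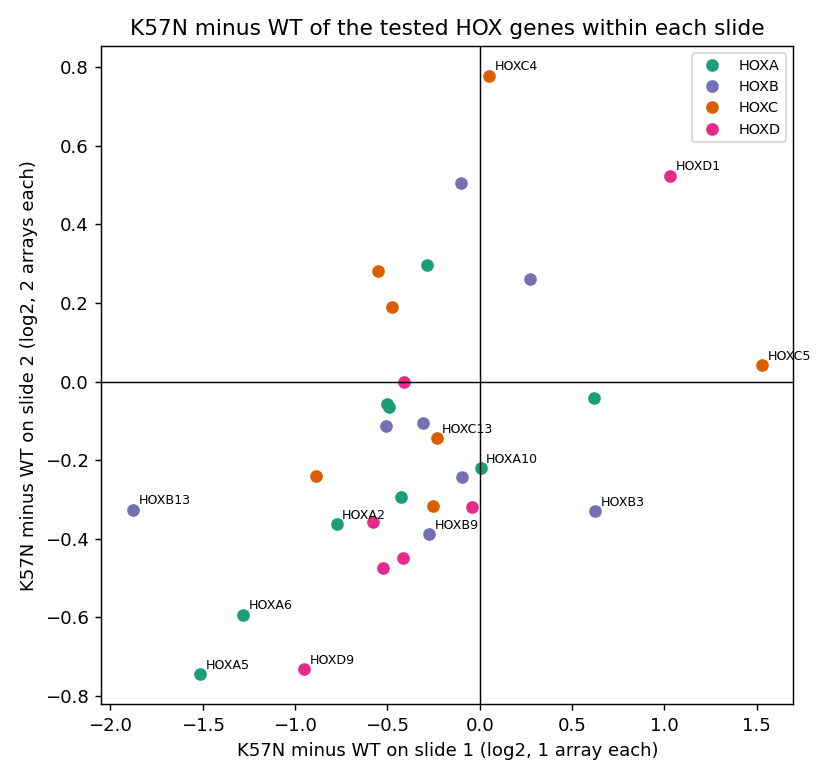
K57N minus WT difference in log2 signal of the 31 tested HOX genes on slide 1 (horizontal axis, 1 array per line) and slide 2 (vertical axis, 2 arrays per line), coloured by cluster. In the lower left corner, 20 genes lie below 0 on both slides, with HOXA5 at -1.51 and -0.75.

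The second comparison asked the same of F53S cells. The HOX genes of F53S and WT were close. The median F53S minus WT difference was 0.003 over the 31 HOX genes and 0.01 over all genes, and 15 HOX genes lay below 0 and 16 above. No HOX gene passed the limma test, against 0% of all genes, with or without the slide term. At an unadjusted p of 0.05 no HOX gene passed without the slide term, against 0.902% of all genes, and 2 did with it (6.45%), against 4.09%, and the methods' t-test called none with over 2-fold change after adjustment, against 0% of all genes.

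The largest falls were at HOXB3, HOXA2 and HOXB9. HOXB3 gave -3.88, -3.13 and -2.87 in WT, -4.24, -3.40 and -3.40 in F53S and -3.26, -3.18 and -3.48 in K57N, an F53S minus WT difference of -0.38 ± 0.32. HOXA2, whose values are given above, had a difference of -0.33 ± 0.34. In both genes WT and F53S overlapped, and replicate 1 was the lowest array of each of these lines. Without F53S replicate 1 the differences were -0.11 at HOXB3 and -0.04 at HOXA2. Leaving out a WT array took HOXB3 to between -0.68 and -0.17 and HOXA2 to between -0.48 and -0.15. Under normexp background correction they were -0.09 and -0.08. HOXB9, a gene of the thoracic skeleton, gave 3.79, 3.35 and 3.40 in WT, 3.23, 3.27 and 3.08 in F53S and 3.52, 3.0 and 2.98 in K57N. There F53S lay below WT on every array, by -0.32 ± 0.21, and by -0.18 without WT replicate 1.

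The largest rises were at HOXD1 (0.36 ± 0.46), HOXA10 and HOXC13. HOXA10, a gene of uterine and limb development, gave 3.73, 1.67 and 2.55 in WT, 4.40, 2.31 and 2.31 in F53S and 3.74, 1.61 and 2.17 in K57N. Its slide 1 signals were higher than its slide 2 signals in every line, and the F53S minus WT difference was 0.36 ± 0.78. Without F53S replicate 1 it was -0.34 and without WT replicate 2 it was -0.14. HOXD1 likewise fell to -0.10 without F53S replicate 2. HOXC13, a gene of hair and nails, gave 0.49, 0.29 and 0.37 in WT, 0.85, 0.46 and 0.54 in F53S and 0.26, 0.16 and 0.21 in K57N. F53S overlapped WT with a difference of 0.23 ± 0.16, which was 0.12 without F53S replicate 1. K57N lay below both.

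The third comparison set the mutant lines against each other, with its F53S arrays and K57N arrays shared with the other comparisons. The median K57N minus F53S difference was -0.20 over the HOX genes and -0.07 over all genes, and the HOX median was -0.32 without K57N replicate 3 and -0.14 without K57N replicate 1. No HOX gene passed an adjusted p of 0.05 with over 2-fold change, against 1.21% of all genes, or 0.135% with the methods' t-test, which also called no HOX gene, and 5 HOX genes passed at an unadjusted p of 0.05 (16.1%), against 10.4%. With slide as a term, 9 HOX genes were lower in K57N at an adjusted p of 0.05 (29%), against 7.54% of all genes, and 0 were higher, against 5.83%. They were HOXA5 (-0.87), HOXD9 (-0.73), HOXA6 (-0.68), HOXD11 (-0.43), HOXC13 and HOXD10 (both -0.41), HOXB6 (-0.36), HOXA13 (-0.34) and HOXC8 (-0.33). With the replicate block 3 were lower (HOXA5, HOXD9 and HOXD10, 9.68%), against 4.86% of all genes.

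Genes that regulate or work with HOX genes were read from lists of known members. None of them passed the test with over 2-fold change without the slide term in any comparison. Of the TALE cofactors, which bind DNA with HOX proteins, 7 of 8 were tested with a median K57N minus WT difference of -0.40. With slide as a term 3 of these 7 were lower at an adjusted p of 0.05, in a fit that had 10.8% of all genes lower, and 0 were higher. MEIS1 gave -0.57, -0.80 and -0.62 in WT, -0.83, -0.91 and -0.71 in F53S and -1.65, -1.34 and -1.21 in K57N (difference -0.73, adjusted p = 0.0692, and 0.00927 with slide). The K57N arrays did not overlap with either other line. PBX3 differed by -0.43 and MEIS2 by -0.40.

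Of 9 upstream regulators, 5 were tested with a median of -0.12, and with slide 2 of the 5 were lower. CYP26A1, which breaks down retinoic acid, differed by -0.99 (adjusted p = 0.0623, and 0.00522 with slide), and the retinoic acid receptor RARG by -0.61 (0.262 and 0.0117). The HOX activators CDX1 and CDX2 were above background on all arrays and differed by -0.12 and 0.12, and CDX4 was above on none. All 17 Polycomb genes were tested, with a median of -0.13. With slide, JARID2 (-0.49) and CBX7 (-0.59) were lower, 2 of 17 in a fit with 10.8% of all genes lower, and 0 were higher. CBX2, the largest difference of the list, was -0.66 (adjusted p = 0.0642 with slide). All 10 trithorax genes and H3K27 demethylases were tested, with a median of -0.13, and with slide 0 passed.

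Of 19 non-coding RNAs of the clusters, 9 had a probe of that name and 6 were tested, with a median of -0.10 and 0 passing with slide. HOXA11-AS, which is transcribed next to HOXA11, was above background on all arrays at 0.62 to 1.51, while the HOXA11 probe was above on none. HOTAIR, transcribed from HOXC, was above on all arrays and differed by -0.15. Of 12 genes next to the clusters, 8 were tested, with a median of -0.21. With slide, SKAP2 beside HOXA (-0.37) and CALCOCO1 and CBX5 on the side of HOXC (-0.59 and -0.56) were lower, and LNPK beside HOXD (0.53) was higher, 3 and 1 of the 8 in a fit with 10.8% of all genes lower and 8.56% higher.

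Some marker genes also differed between K57N and WT. With slide as a term, the HEK293 markers KRT18 (0.72, adjusted p = 0.00593) and NEFL (0.50, 0.0193) were higher. The fibroblast collagen gene COL1A1 was lower, with 0.37, -0.54 and -0.39 in WT and -1.22, -1.23 and -1.70 in K57N (-1.20, adjusted p = 0.0994, and 0.00327 with slide). LUM, the other fibroblast marker, was above background on 6 arrays. The endothelial marker PECAM1 was above background on 2 K57N arrays and on none of the other lines, with -5.78, -7.45 and -7.04 in WT, -5.82, -6.97 and -6.14 in F53S and -5.02, -2.90 and -4.55 in K57N. CDH5, the other endothelial marker, was above background on all arrays. It differed by -0.13 between K57N and WT (limma adjusted p = 0.984, and 0.680 with slide). Their part in the HOX differences was not tested.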

How the data were processed

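The authors deposited, for each of the 9 arrays, the processed signal intensity of Agilent Feature Extraction (10.10.1.1 per the submitters' processing notes), background-subtracted, and a log2 table that equals log2 of it less a constant per array, within 0.1 log2 units. Log2 of the intensity less the array's 75th percentile was tested with limma (3.58.1) in R (4.3.3), without control spots or spots marked as outliers or uneven. Repeated spots were averaged, and the tested probe with the highest mean stood for a gene. A probe was tested where every array of at least 1 line had it above background, in 1 fit over 9 arrays, with Benjamini-Hochberg adjustment over the 25400 probes of 19280 genes. Genes are named by RefSeq accession for 29032 probes, and otherwise by the later of 2 annotations, which name 17465 probes differently. Probe positions are hg19.

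The HOX members and the gene lists were chosen with earlier results of these data known. Some items are not reported here and are in none of the HOX or list counts. Every HOX gene described is named by its detection. Values on every array are given for HOX genes that passed an adjusted p of 0.05 with over 2-fold change with or without a slide term, for those lower in K57N than WT with the slide term at any fold and for HOXC11, both chosen after their values were seen, and for the 3 largest rises and falls in K57N and in F53S against WT. The numbers of replicates, shared by the titles, go with the slide. Deviations of arrays of the same number correlated at 0.34 to 0.87, and the replicate block treated them as paired. Among slide 2 arrays, those of the same number correlated at 0.34 to 0.77 and those of other numbers at 0.43 to 0.65. Arrays on different slides correlated at -0.80 to -0.46. The correlation thus followed the slide and does not show pairing by number. On slide 1, number and slide cannot be told apart. The fit was checked on simulated data that were given the slide differences of these arrays. More of the known changes were therefore called with the slide term than without it. More unchanged genes were called with it too. The simulation thus cannot tell which fit is the better one for the arrays. The number of arrays limits precision.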

Additional observations from a re-analysis of the deposited data

How the results depend on the processing

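The number of HOX genes passing the test in K57N minus WT was 0 in the fit reported and 1, HOXA5, with slide as a term. With the replicate block, which treats the arrays as paired, it was also 1, HOXA5, at an adjusted p of 0.0117, and the block changed no other call of a HOX gene at over 2-fold. It stayed at 0 when each array was left out, under the t-test and with only the 2 lines in the fit. It was also 0 on slide 2 alone, on the deposited log2 values and with normexp or quantile scaling. The same held with dim probes kept or filtered more strictly, and with probes averaged per gene. HOXA5 had a limma adjusted p under 0.05 with normexp (0.0497) and on slide 2 alone (0.0109). There its change was under 2-fold, at -0.87 and -0.75. The median K57N minus WT difference of HOX genes ranged from -0.24 to -0.19 when each array was left out and was -0.17 under quantile normalization. HOXA5 kept its direction under all 20 alternatives, from -1.16 to -0.75, with adjusted p from 0.00527 to 0.291. HOXC4 ranged from 0.41 to 0.78, with the lowest adjusted p (0.00965) on slide 2 alone. In F53S minus WT, HOXA10 turned to -0.14 without WT replicate 2 and -0.34 without F53S replicate 1, within a leave-one-out range of -0.34 to 0.90, and HOXD1 to -0.10 without F53S replicate 2, within -0.10 to 0.83; the cause was not tested. The F53S minus WT median of HOX genes, 0.003, also crossed 0, with -0.04 to 0.005 when each array was left out and -0.005 under quantile normalization. The K57N minus F53S median ranged from -0.32 to -0.14 when each array was left out. Genes above background under all arrays of a line numbered 28 to 32 in WT, 27 to 34 in F53S and 31 to 32 in K57N when each array was left out. Low signal limits HOXA2, HOXB1, HOXB3, HOXB8, HOXC5, HOXC10, HOXC11, HOXD1 and HOXD4, whose arrays were in part below background.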
